A study of Mus musculus with 16 samples.

Results

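The Hox cluster genes were taken from the polyA RNA tables of a study of mouse fetal liver stroma. Members were all genes whose symbol is Hox, a cluster letter from a to d and a paralog number, which gave 39 of the 43626 genes in the read tables. HoxA has 11 of them, HoxB 10, HoxC 9 and HoxD 9. Of the 39 members, 29 had 20 or more reads summed over the groups, 3 had 1 to 19 (at most 4) and 7 had 0. The table of FPKM (fragments scaled to transcript length and library size) lists 32 of them.

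RNA came from 2 stromal cell lines, AFT024 and BFC012, each derived from the liver of C57BL/6 fetuses at 14.5 days post coitum, and from the exosomes (small secreted membrane vesicles) that each line releases. The labels describe AFT024 as supportive of hematopoietic stem and progenitor cells and BFC012 as non-supportive. The 4 polyA groups are therefore the exosomes of AFT024 and of BFC012 and the cells of AFT024 and of BFC012, with 2 samples per group in the labels and 1 merged value per group in the tables. Exosome RNA was pooled from several extractions and split into technical sequencing replicates, per the design text. Each kind of stroma is represented by 1 line, so a difference between the lines and a difference in support cannot be told apart. With no replicate values no test was possible, and brackets hold exact Clopper-Pearson 95% intervals that cover counting error only.

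Hox genes encode homeodomain transcription factors that set position along the body axis. Mammals carry 4 clusters, on separate chromosomes, in which genes of the same paralog number descend from a common ancestor. Genes at the 3′ end (low paralog numbers) are used early and anteriorly in the embryo, and genes at the 5′ end (high numbers) late and posteriorly, in an order kept by Polycomb repression and trithorax-type activation. Cultured stromal cells and fibroblasts are known to retain a Hox pattern that reflects the site they came from, and in blood formation Hoxb4 and Hoxa9 are best known as regulators of stem and progenitor cells.

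The polyA tables held 9038471 reads in AFT024 exosomes, 16344350 in BFC012 exosomes, 39385534 in AFT024 cells and 35874383 reads in BFC012 cells. A count of 0 allows up to 3 reads, which in RPM (reads per 1000000 reads of the table) is 0.332 in AFT024 exosomes, 0.184 in BFC012 exosomes, 0.0762 in AFT024 cells and 0.0836 in BFC012 cells. Read ratios were taken after median-of-ratios scaling. A gene was counted in a comparison where both groups together held 20 or more reads, and called higher or lower at 2-fold. Stromal markers were read in all groups except Thy1, which had 0 or 1 read in each, and Col1a2, which was close to unread in BFC012. Col1a2 had 171 reads in AFT024 exosomes, 5 in BFC012 exosomes, 1717 in AFT024 cells and 12 in BFC012 cells. Of the 7 stromal markers, 6 in AFT024 cells and 5 in BFC012 cells had 20 or more reads, with summed levels from 998 to 1303 RPM in exosomes and from 2276 to 5248 RPM in cells. Hepatic and endothelial markers summed to at most 1.14 RPM in any group, and of the haematopoietic markers only Cd34 reached 20 reads. Of the 4 mesothelial markers, Wt1 and Upk1b were at 0 reads in AFT024 cells, Upk3b had 5 reads in AFT024 cells against 13308 in BFC012 cells, and Msln went the other way with 3699 reads in AFT024 cells against 1467 in BFC012 cells. The list summed to 60.0 RPM in AFT024 exosomes, 132 RPM in BFC012 exosomes, 94.0 RPM in AFT024 cells and 539 RPM in BFC012 cells, and Msln gave 59.2 RPM of the sum in AFT024 exosomes and 93.9 RPM of that in AFT024 cells. The 5 epithelial markers summed to 5.64 RPM in AFT024 exosomes, 8.02 RPM in BFC012 exosomes, 1.35 RPM in AFT024 cells and 24.5 RPM in BFC012 cells. Cdh1 gave 21.1 RPM of the sum in BFC012 cells. Krt19 had 7 reads in AFT024 cells against 92 in BFC012 cells, and Krt18 had 5 against 9. Krt8 and Epcam went the other way, with 34 reads in AFT024 cells against 21 in BFC012 cells for Krt8 and 4 against 0 for Epcam. The part of these markers in the Hox differences was not tested. In bulk RNA, fewer cells of a type and less RNA per cell cannot be told apart.

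The 2 lines used different Hox clusters. HoxC genes made up most Hox reads of AFT024 cells and HoxA genes most of those of BFC012 cells, HoxB was read in both lines, and HoxD was close to silent in both. HoxC took 46.5% of Hox reads in AFT024 exosomes (43.3 to 49.7), 1.27% in BFC012 exosomes (0.946 to 1.67), 67.8% in AFT024 cells (66.9 to 68.7) and 2.10% in BFC012 cells (1.87 to 2.35). HoxA took 16.6% in AFT024 exosomes (14.3 to 19.1), 72.3% in BFC012 exosomes (70.9 to 73.7), 8.75% in AFT024 cells (8.23 to 9.30) and 68.9% in BFC012 cells (68.2 to 69.7). The share of HoxB lay between 23.4% and 36.7% in all 4 groups. In total the Hox genes had 951 reads in AFT024 exosomes, 4019 in BFC012 exosomes, 10977 in AFT024 cells and 14339 reads in BFC012 cells. The overall ratio of AFT024 to BFC012 cells was 0.713 (0.695 to 0.731), so the summed Hox level differed much less between the lines than its split between clusters.

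**Figure D1:**
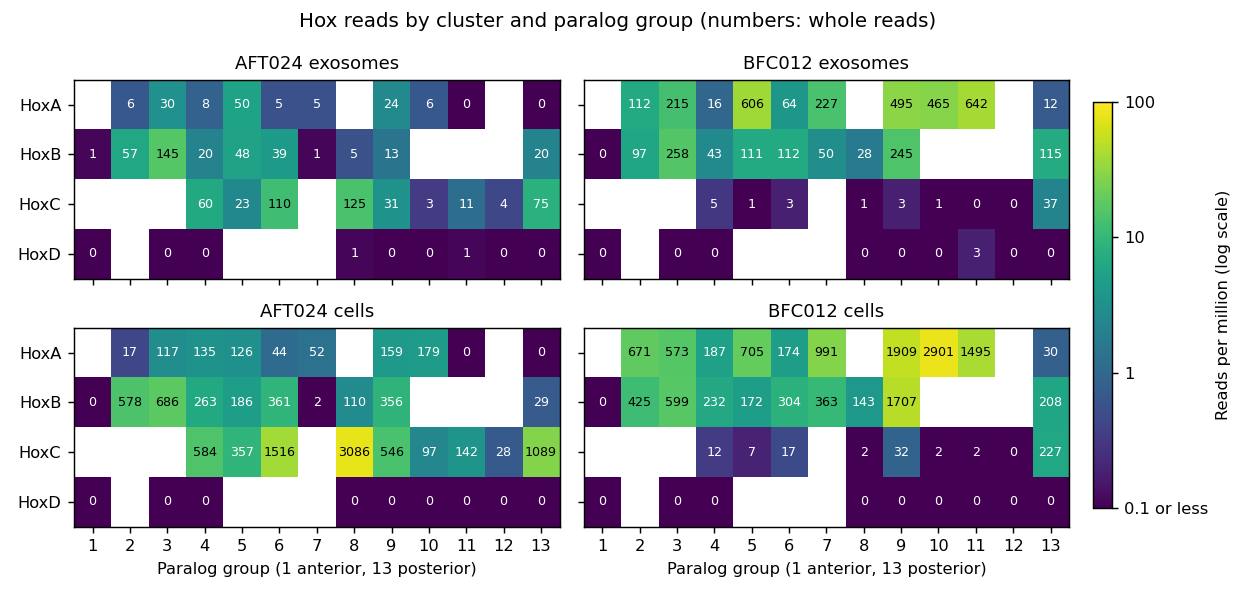
Reads of each Hox gene in the 4 polyA groups, with clusters as rows and paralog groups 1 to 13 as columns. Numbers are whole reads, colour is RPM on a log scale, and white squares are positions with no gene or with a gene not shown. HoxC is filled in both AFT024 panels, HoxA in both BFC012 panels, and HoxD holds at most 3 reads per gene in any panel.

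The promoters of 3 genes are shown: a gene read only in BFC012 (Hoxa11), 1 read mainly in AFT024 (Hoxc4) and 1 read in both lines (Hoxb4). They run from 250 bases before to 50 bases after the annotated start, 5′ to 3′ on the strand of the gene (RefSeq, GRCm38.p6), and capitals mark CG dinucleotides. Hoxa11 lies at chr6:52245761-52246060 on the minus strand, Hoxc4 at chr15:103034145-103034444 and Hoxb4 at chr11:96318017-96318316, both on the plus strand. The Hoxc4 window surrounds a start inside the annotated span of the gene (chr15:103018934-103036852), whereas those of Hoxa11 and Hoxb4 lie at the outer start.
Hoxa11: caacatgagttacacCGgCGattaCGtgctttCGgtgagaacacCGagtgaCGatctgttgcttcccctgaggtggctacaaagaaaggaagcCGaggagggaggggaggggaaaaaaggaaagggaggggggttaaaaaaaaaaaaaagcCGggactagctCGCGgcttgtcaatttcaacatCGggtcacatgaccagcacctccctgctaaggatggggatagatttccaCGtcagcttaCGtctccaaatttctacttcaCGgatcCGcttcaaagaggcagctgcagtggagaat
Hoxc4: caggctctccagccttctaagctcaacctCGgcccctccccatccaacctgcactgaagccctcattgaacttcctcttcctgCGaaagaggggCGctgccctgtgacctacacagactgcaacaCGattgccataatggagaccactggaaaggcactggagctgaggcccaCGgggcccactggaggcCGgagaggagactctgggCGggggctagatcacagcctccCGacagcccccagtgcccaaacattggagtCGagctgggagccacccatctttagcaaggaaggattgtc
Hoxb4: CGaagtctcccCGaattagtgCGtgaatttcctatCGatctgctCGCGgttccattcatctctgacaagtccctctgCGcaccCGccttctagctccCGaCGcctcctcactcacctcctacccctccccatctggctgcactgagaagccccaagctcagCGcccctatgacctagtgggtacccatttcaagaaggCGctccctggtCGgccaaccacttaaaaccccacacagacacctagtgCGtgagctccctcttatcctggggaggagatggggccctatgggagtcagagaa
The Hoxa11 window holds 15 CG dinucleotides, that of Hoxc4 9 and that of Hoxb4 14, against a median of 7 over the 32851 promoters of the table. A promoter was listed for 22 of the 39 members, of which 9 are in HoxA, 3 in HoxB, 1 in HoxC and 9 in HoxD, with 24 promoters in all and a median of 14.5 CG dinucleotides (4 to 45). The near-silent HoxD genes are included in that range. On either strand, TGACAG, the core that Meis and Pknox proteins bind, was found in 2 of the 24 Hox windows and 19.2% of all windows. TGATTNAT, a joint Pbx and Hox motif, was found in 2 of 24 and 3.22% of all windows. None of the printed windows holds either motif, or TATAAA, which 4 of the 24 Hox windows and 13.6% of all windows hold. These motifs do not contain one another.

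HoxC genes were the ones higher in AFT024 cells. All 9 were called higher than in BFC012 cells, with ratios from 4.47 to 1436 where both groups had reads, and they were the only Hox genes called higher. Over all 14203 genes counted in this comparison 21.3% were called, 11.9% higher and 9.46% lower. For the 4 central HoxC genes together the ratio was 136 (98.8 to 192) and for the 5 posterior ones 6.73 (5.91 to 7.69). Hoxc13 gave 227 of the 263 posterior HoxC reads of BFC012 cells. Gene by gene the positions overlapped, with posterior Hoxc10 at 45.1 and Hoxc11 at 66.1 and central Hoxc4 at 45.3 and Hoxc5 at 47.5. Hoxc8 and Hoxc6, central genes used at trunk levels of the embryo, had the highest FPKM of any Hox gene in AFT024 cells, and Hoxc8 ranked above 74.4% of the coding genes at 1 FPKM or more.

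Hoxc8 (chr15:102990607-102994111, plus strand, mm10) had 125 reads (3.22 FPKM) in AFT024 exosomes, 1 read (0.172 FPKM) in BFC012 exosomes, 3086 reads (35.7 FPKM) in AFT024 cells and 2 reads (0.0968 FPKM) in BFC012 cells. The ratio between the cells was 1436 (397 to 11865), and the lower limit rests on the 2 reads in BFC012. Hoxc6 had 110 reads (3.74 FPKM) in AFT024 exosomes, 3 (0.0761 FPKM) in BFC012 exosomes, 1516 (22.1 FPKM) in AFT024 cells and 17 (0.394 FPKM) in BFC012 cells, a ratio of 83.0 (51.7 to 143) between the cells. Their neighbours on the anterior side were lower in level but differed in the same way. Hoxc4 had 60 reads (1.59 FPKM) in AFT024 exosomes, 5 (0.0964 FPKM) in BFC012 exosomes, 584 (6.41 FPKM) in AFT024 cells and 12 (0.123 FPKM) in BFC012 cells. Hoxc5 had 23 reads (0.396 FPKM) in AFT024 exosomes, 1 (0.0128 FPKM) in BFC012 exosomes, 357 (5.48 FPKM) in AFT024 cells and 7 (0.0576 FPKM) in BFC012 cells. The ratios between the cells were 45.3 (25.7 to 88.2) for Hoxc4 and 47.5 (22.8 to 119) for Hoxc5. Hoxc5 and Hoxc10 share 166 exonic bases on the same strand, since the annotated span of Hoxc5 begins inside that of Hoxc10, so reads there are uncertain.

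The posterior HoxC genes had lower FPKM in AFT024 cells than Hoxc8, down to Hoxc12, and Hoxc13 was higher again. Hoxc9, a thoracic gene, had 31 reads (0.728 FPKM) in AFT024 exosomes, 3 (0.0926 FPKM) in BFC012 exosomes, 546 (5.74 FPKM) in AFT024 cells and 32 (0.373 FPKM) in BFC012 cells. Hoxc10, a lumbar and hindlimb gene, had 3 reads (0.0824 FPKM) in AFT024 exosomes, 1 (0.0205 FPKM) in BFC012 exosomes, 97 (1.28 FPKM) in AFT024 cells and 2 (0.0263 FPKM) in BFC012 cells. Hoxc11 had 11 reads (0.283 FPKM) in AFT024 exosomes, 0 in BFC012 exosomes, 142 (1.61 FPKM) in AFT024 cells and 2 (0.0246 FPKM) in BFC012 cells. The ratio between the cells was 15.9 (11.1 to 23.5) for Hoxc9, 45.1 (12.2 to 378) for Hoxc10 and 66.1 (18.0 to 551) for Hoxc11, so the last 2 are wide. Hoxc12 had 4 reads (0.17 FPKM) in AFT024 exosomes and 28 (0.649 FPKM) in AFT024 cells, and 0 in BFC012 exosomes and BFC012 cells. Set against the floor of 3 reads it was 8.69-fold higher in AFT024 cells, and the interval of the ratio began at 6.61. Hoxc13, a gene of hair and nail development at the 5′ end, had 75 reads (1.60 FPKM) in AFT024 exosomes, 37 (0.573 FPKM) in BFC012 exosomes, 1089 (9.95 FPKM) in AFT024 cells and 227 (2.25 FPKM) in BFC012 cells. At 4.47 (3.87 to 5.17) it had the smallest ratio of the cluster, and it is the HoxC gene that BFC012 also reads: 227 of the 301 HoxC reads of BFC012 cells and 37 of the 51 of BFC012 exosomes came from it.

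HoxA genes were the ones higher in BFC012. Of the 11 members, 10 were called lower in AFT024 cells and Hoxa4 was under 2-fold, with a ratio for the whole cluster of 0.0905 (0.0846 to 0.0967). Summed by position, the ratio was 0.166 (0.145 to 0.189) for the 3 anterior genes and 0.162 (0.144 to 0.181) for the 4 central ones. For the 4 posterior genes it was 0.0497 (0.0444 to 0.0554), an interval below those of the other positions. Gene by gene this order did not hold. Anterior Hoxa2 (0.0236) and central Hoxa7 (0.0488) had lower ratios than posterior Hoxa10 (0.0574) and Hoxa9 (0.0775), while posterior Hoxa11 and Hoxa13 had 0 reads in AFT024 cells. HoxA lies on chromosome 6, all 11 members on the minus strand, within 105 kb.

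Hoxa11 (chr6:52242106-52245810), a limb and uterus gene, had 0 reads in AFT024 exosomes, 642 (13.4 FPKM) in BFC012 exosomes, 0 in AFT024 cells and 1495 (16.3 FPKM) in BFC012 cells. Set to the floor of 3 reads, it was 535-fold lower in AFT024 cells than in BFC012 cells, and the interval of the ratio reached up to 0.0023. Of its exonic bases 35% lie opposite Hoxa11os, and reads of the 2 strands cannot be told apart because the library kit named in the labels does not mark strand. Hoxa13, the most posterior gene, had 0 reads in both AFT024 groups, 12 (0.191 FPKM) in BFC012 exosomes and 30 (0.307 FPKM) in BFC012 cells. Set to the same floor, it was 10.7-fold lower in AFT024 cells, and the interval of the ratio reached up to 0.122. The next genes inward were read in all 4 groups. Hoxa10, a regulator of uterine and myeloid development, had 6 reads (0.187 FPKM) in AFT024 exosomes, 465 (12.6 FPKM) in BFC012 exosomes, 179 (2.60 FPKM) in AFT024 cells and 2901 (46.0 FPKM) in BFC012 cells. Hoxa9 had 24 reads (0.431 FPKM) in AFT024 exosomes, 495 (6.80 FPKM) in BFC012 exosomes, 159 (2.60 FPKM) in AFT024 cells and 1909 (33.7 FPKM) in BFC012 cells. Both had the highest Hox FPKM of BFC012 cells, Hoxa10 above 80.1% and Hoxa9 above 73.2% of the coding genes at 1 FPKM or more. Between the cells the ratio was 0.0574 (0.0491 to 0.0668) for Hoxa10 and 0.0775 (0.0655 to 0.0912) for Hoxa9.

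The central HoxA genes were spread widely. Hoxa7 had 5 reads in AFT024 exosomes and 52 in AFT024 cells, both listed at 0 FPKM, and 227 (4.52 FPKM) in BFC012 exosomes and 991 (14.1 FPKM) in BFC012 cells. Hoxa6 had 5 reads (0.279 FPKM) in AFT024 exosomes, 64 (2.87 FPKM) in BFC012 exosomes, 44 (1.19 FPKM) in AFT024 cells and 174 (5.18 FPKM) in BFC012 cells. Hoxa5, which acts in lung and gut mesenchyme, had 50 reads (1.43 FPKM) in AFT024 exosomes, 606 (12.8 FPKM) in BFC012 exosomes, 126 (1.55 FPKM) in AFT024 cells and 705 (9.44 FPKM) in BFC012 cells. The ratio between the cells was 0.0488 for Hoxa7 (0.0362 to 0.0646), 0.235 for Hoxa6 (0.165 to 0.329) and 0.166 for Hoxa5 (0.137 to 0.201). Hoxa4 was the HoxA gene under 2-fold: it had 8 reads in AFT024 exosomes (0.421 FPKM), 16 in BFC012 exosomes, 135 in AFT024 cells (3.36 FPKM) and 187 in BFC012 cells, and both BFC012 groups are listed at 0 FPKM. On reads its ratio was 0.672 (0.535 to 0.843), so the difference between the lines seen in FPKM was not seen in reads.

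Among the anterior HoxA genes, Hoxa2 differed most. This gene of hindbrain and second-arch identity had 6 reads (0.428 FPKM) in AFT024 exosomes, 112 (3.43 FPKM) in BFC012 exosomes, 17 (listed at 0 FPKM) in AFT024 cells and 671 (16.5 FPKM) in BFC012 cells, a ratio of 0.0236 (0.0137 to 0.0380) between the cells. Hoxa3, a gene of thymus and parathyroid formation, had 30 reads (0.657 FPKM) in AFT024 exosomes, 215 (4.43 FPKM) in BFC012 exosomes, 117 (1.70 FPKM) in AFT024 cells and 573 (8.08 FPKM) in BFC012 cells. Hoxa3 stood at 0.190 (0.154 to 0.232) between the cells. Of its exonic bases 27.1% are shared with other genes, Hoxaas2 on the opposite strand among them, so its reads are uncertain. The same holds to a lesser degree for Hoxa7, with 20.4% of its exonic bases opposite another gene.

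HoxB split into a shared part and a part higher in BFC012. Of its 9 counted members, 6 were under 2-fold between the cells (Hoxb2, Hoxb3, Hoxb4, Hoxb5, Hoxb6 and Hoxb8, with ratios from 0.716 to 1.27), and Hoxb7, Hoxb9 and Hoxb13 were lower in AFT024 cells. Summed by position, the ratio was 1.15 (1.06 to 1.25) for the anterior genes, 0.707 (0.648 to 0.771) for the central ones and 0.187 (0.167 to 0.209) for the 2 posterior ones. The central sum includes Hoxb7, with 2 reads in AFT024 cells against 363 in BFC012 cells. The other central genes lay from 0.716 to 1.11, so the sums do not show a graded change along the cluster. Hoxb1, the remaining member, had 1 read in AFT024 exosomes and 0 elsewhere.

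The shared genes had nearly equal levels in the 2 kinds of cell. Hoxb2 had 57 reads (2.41 FPKM) in AFT024 exosomes, 97 (2.39 FPKM) in BFC012 exosomes, 578 (8.42 FPKM) in AFT024 cells and 425 (6.72 FPKM) in BFC012 cells, a ratio of 1.27 (1.11 to 1.44) between the cells. Hoxb3 had 145 reads (listed at 0 FPKM) in AFT024 exosomes, 258 (0.721 FPKM) in BFC012 exosomes, 686 (1.69 FPKM) in AFT024 cells and 599 (1.97 FPKM) in BFC012 cells. Of the exonic bases of Hoxb3 52.9% lie opposite Hoxb3os, and of those of Hoxb2 27.3%, so the reads of both are uncertain. Hoxb4 had 20 reads (0.421 FPKM) in AFT024 exosomes, 43 (0.662 FPKM) in BFC012 exosomes, 263 (2.32 FPKM) in AFT024 cells and 232 (2.20 FPKM) in BFC012 cells. Its ratio between the cells was 1.06 (0.881 to 1.26), an interval that includes 1. Hoxb5 had 48 reads (1.22 FPKM) in AFT024 exosomes, 111 (2.04 FPKM) in BFC012 exosomes, 186 (1.80 FPKM) in AFT024 cells and 172 (1.99 FPKM) in BFC012 cells. Hoxb6 had 39 reads (1.25 FPKM) in AFT024 exosomes, 112 (2.72 FPKM) in BFC012 exosomes, 361 (4.14 FPKM) in AFT024 cells and 304 (3.73 FPKM) in BFC012 cells. The intervals of Hoxb3 (0.954 to 1.19), Hoxb5 (0.814 to 1.25) and Hoxb6 (0.946 to 1.29) between the cells also include 1.

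Hoxb7 stood apart from the genes on either side of it. It had 1 read (0.0431 FPKM) in AFT024 exosomes, 50 (1.70 FPKM) in BFC012 exosomes, 2 (0.0759 FPKM) in AFT024 cells and 363 (7.62 FPKM) in BFC012 cells, a ratio of 0.00513 (0.000619 to 0.0187) between the cells. Its 5′ neighbour Hoxb8 had 5 reads (0.0963 FPKM) in AFT024 exosomes, 28 (0.417 FPKM) in BFC012 exosomes, 110 (0.934 FPKM) in AFT024 cells and 143 (1.33 FPKM) in BFC012 cells, a ratio of 0.716 (0.553 to 0.925). With its 3′ neighbour Hoxb6 at 1.11, Hoxb7 (chr11:96286623-96290162) was thus close to unread in AFT024 cells between 2 genes that were read. Hoxb9 had 13 reads (0.308 FPKM) in AFT024 exosomes, 245 (4.10 FPKM) in BFC012 exosomes, 356 (3.48 FPKM) in AFT024 cells and 1707 (18.2 FPKM) in BFC012 cells. Hoxb13, a gene of prostate and tail-end development far 5′ of the others, had 20 reads (0.468 FPKM) in AFT024 exosomes, 115 (2.01 FPKM) in BFC012 exosomes, 29 (0.299 FPKM) in AFT024 cells and 208 (2.35 FPKM) in BFC012 cells. Between the cells Hoxb9 stood at 0.194 (0.173 to 0.218) and Hoxb13 at 0.130 (0.0848 to 0.192).

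HoxD, the cluster of limb, genital and posterior trunk identity, gave 2 reads in AFT024 exosomes, 3 in BFC012 exosomes and 0 in AFT024 cells and BFC012 cells over all 9 members. The 0 of AFT024 cells allows up to 0.0762 RPM for the whole cluster and that of BFC012 cells up to 0.0836 RPM. The few exosome reads fell on Hoxd8 (1 read in AFT024 exosomes) and Hoxd11 (1 read in AFT024 exosomes and 3 in BFC012 exosomes).

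**Figure D2:**
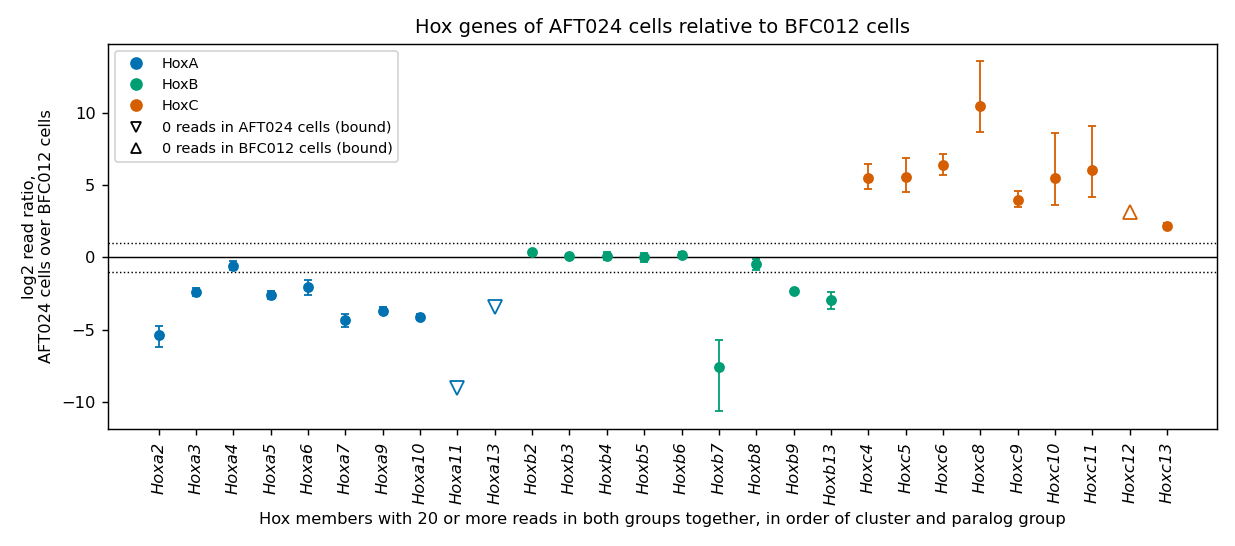
Log2 read ratio of AFT024 cells over BFC012 cells for 28 of the counted Hox genes, in order of cluster and paralog number. Bars are exact 95% counting intervals, dotted lines mark 2-fold, and open triangles are bounds for genes at 0 reads in one group. HoxC lies above the upper line, HoxA below the lower one except Hoxa4, and HoxB between the 2-fold lines except Hoxb7, Hoxb9 and Hoxb13.

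By position along the clusters, all 11 counted posterior members were called between the cells, 5 higher and 6 lower in AFT024. Of the central members 8 of 13 were called and of the anterior ones 3 of 5, where 21.3% of all 14203 genes were. Position and cluster cannot be told apart here. The 7 members under 2-fold were Hoxa4 and 6 HoxB genes, HoxC has no anterior gene, and all 4 of its central genes were called. Since paralogs partly stand in for each other, levels were summed within a paralog group as reads scaled to exon length and library size (RPKM). Group 8 was at 28.7 RPKM in AFT024 cells, 96.3% of it Hoxc8, against 1.53 RPKM in BFC012 cells, 98.7% of it Hoxb8. Group 10 was at 2.68 RPKM in AFT024 cells, 51.9% of it Hoxa10, against 24.8 RPKM in BFC012 cells, 99.9% of it Hoxa10. Group 8 was thus higher in AFT024 cells and group 10 higher in BFC012 cells, but they were not the only ones. Groups 4, 6, 12 and 13 were also higher in AFT024 cells, and groups 2, 3, 5, 7, 9 and 11 were among those higher in BFC012 cells. The highest group was 8 in AFT024 cells and 9 in BFC012 cells. Group 11 was led by Hoxc11 in AFT024 cells at 1.78 RPKM and by Hoxa11 in BFC012 cells at 18.2 RPKM. Group 9 was led by Hoxc9 in AFT024 cells (57.4% of 9.94 RPKM) and by Hoxb9 in BFC012 cells (65.1% of 28.4 RPKM). Groups 3 (Hoxb3), 7 (Hoxa7) and 10 (Hoxa10) were among those with the same leading member in both kinds of cell. In group 3, Hoxb3 held 89.2% of 4.59 RPKM in AFT024 cells and 59.7% of 6.58 RPKM in BFC012 cells.

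The exosomes repeated the difference between the lines. Of 25 members counted between AFT024 and BFC012 exosomes, 6 were higher, all in HoxC, and 12 were lower, 8 in HoxA and 4 in HoxB. Over all 12358 genes counted there 29.3% were called, 14.1% higher and 15.1% lower. The cluster ratio in exosomes was 15.1 (11.3 to 20.7) for HoxC, 0.0950 (0.0804 to 0.112) for HoxA and 0.576 (0.509 to 0.651) for HoxB, and that in cells was 23.0 (20.5 to 25.9) for HoxC, 0.0905 (0.0846 to 0.0967) for HoxA and 0.576 (0.548 to 0.605) for HoxB. The intervals of exosomes and cells overlap for HoxA and HoxB. For HoxC they meet only at their edges, and the ratio was smaller in exosomes than in cells.

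Gene by gene, 18 members called between the cells were also counted between the exosomes, and 17 of them had the same call there. Hoxb8 was called in exosomes only, at 0.312 (0.0941 to 0.819). None had the opposite call. Over all genes 1481 of 2140, or 69.2%, kept their call. Across the 25 members counted in both, the log2 ratios of exosomes and cells had a Pearson r of 0.972, given as a description: the comparisons share no library, and members of a cluster are not independent of each other. Hoxc8 in exosomes had a ratio of 218 (38.5 to 8696), and Hoxa11 was at least 122-fold lower in AFT024 exosomes than in BFC012 exosomes. Hoxa10 stood at 0.0225 (0.00823 to 0.0494) in exosomes, below its 0.0574 (0.0491 to 0.0668) in cells, with intervals that overlap narrowly.

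**Figure D3:**
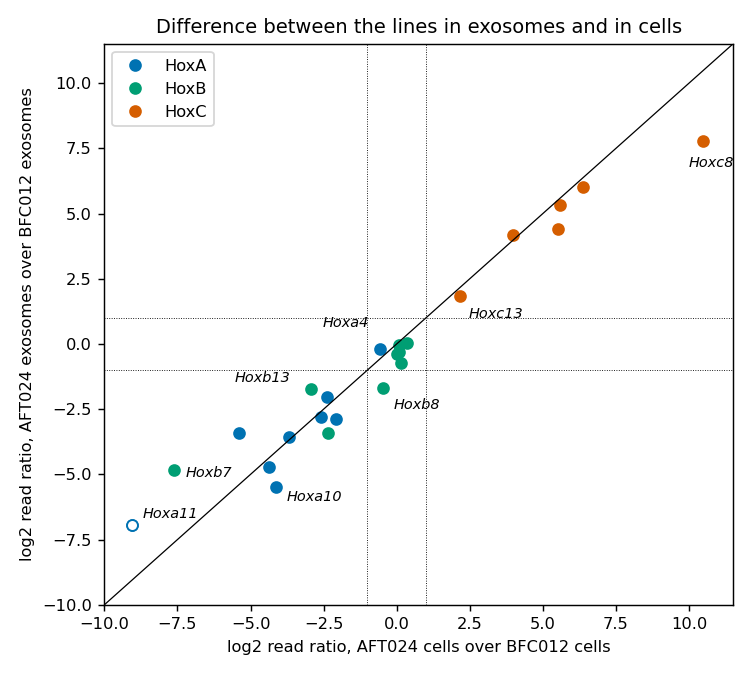
Log2 read ratio of AFT024 over BFC012 in exosomes (y axis) and in cells (x axis) for 24 of the Hox genes counted in both. The diagonal marks equal ratios and dotted lines mark 2-fold; the open point, Hoxa11, is a bound on both axes because both AFT024 groups had 0 reads. The members lie along the diagonal, with HoxC at the upper right and HoxA at the lower left.

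Within a line, exosomes against cells moved the Hox genes less than the lines did. In AFT024, 26 members were counted, of which 12 were lower in exosomes than in cells and 3 higher (Hoxa2, Hoxa5 and Hoxb13). Over all 13383 genes counted 49.2% were called, 21.2% higher and 27.9% lower, so 15 of 26 is near that share. The median gene stood at -0.25 on the log2 scale. As a cluster HoxC stood at 0.346 (0.314 to 0.381), against 0.792 (0.706 to 0.886) for HoxB and 0.959 (0.806 to 1.14) for HoxA. Of the 9 HoxC genes 7 were called lower and none higher, but only Hoxc8 and Hoxc9 had the whole interval past 2-fold. Outside HoxC, Hoxa4, Hoxa10, Hoxb4, Hoxb8 and Hoxb9 were also called lower. By library totals in place of median-of-ratios factors the split was 1 higher and 17 lower, and on FPKM with a pseudocount of 1, relative to the median gene, its balance turned to 6 higher and 3 lower.

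In BFC012, 23 members were counted, of which 2 were higher in exosomes than in cells (Hoxa5 and Hoxb5) and 5 lower (Hoxa4, Hoxa10, Hoxb7, Hoxb9 and Hoxc9). Over all 13328 genes counted 50.4% were called, 23.4% higher and 26.9% lower, and the median gene stood at -0.11 on the log2 scale. The members called were thus a smaller share, 30.4%, than the genes at large. HoxA stood at 0.914 (0.876 to 0.952), HoxB at 0.792 (0.740 to 0.848) and HoxC at 0.527 (0.383 to 0.710). By library totals the split was 0 higher and 11 lower.

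Hoxa5 was the member higher in exosomes in both lines, at 2.32 (1.63 to 3.24) in AFT024 and 2.67 (2.39 to 2.98) in BFC012. No other member was called higher in both. By library totals it was under 2-fold in both lines, at 5.53 RPM in AFT024 exosomes and 3.20 RPM in AFT024 cells, and at 37.1 RPM in BFC012 exosomes and 19.7 RPM in BFC012 cells. Hoxb13 stood at 4.02 (2.16 to 7.36) in AFT024 and 1.72 (1.36 to 2.17) in BFC012. Hoxa4, Hoxa10, Hoxb9 and Hoxc9 were called lower in both lines. Hoxc9 rests on 3 exosome reads in BFC012 (0.0571 to 0.931) and Hoxa4 on 8 in AFT024 (0.146 to 0.701). Hoxa10 was only just past the 2-fold rule in BFC012. The difference between the lines was described where both intervals lay apart and the ratios differed by 2-fold. This was so for 3 of 20 members counted in both lines. Hoxa2 stood at 2.06 (0.665 to 5.47) in AFT024 and 0.519 (0.421 to 0.634) in BFC012, Hoxa10 at 0.196 (0.0708 to 0.434) in AFT024 and 0.498 (0.451 to 0.550) in BFC012, and Hoxb9 at 0.213 (0.112 to 0.369) in AFT024 and 0.446 (0.388 to 0.510) in BFC012. By library totals 2 members differed this way, both with the higher ratio in AFT024. The AFT024 values of Hoxa2 and Hoxa10 rest on 6 exosome reads each.

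**Figure D4:**
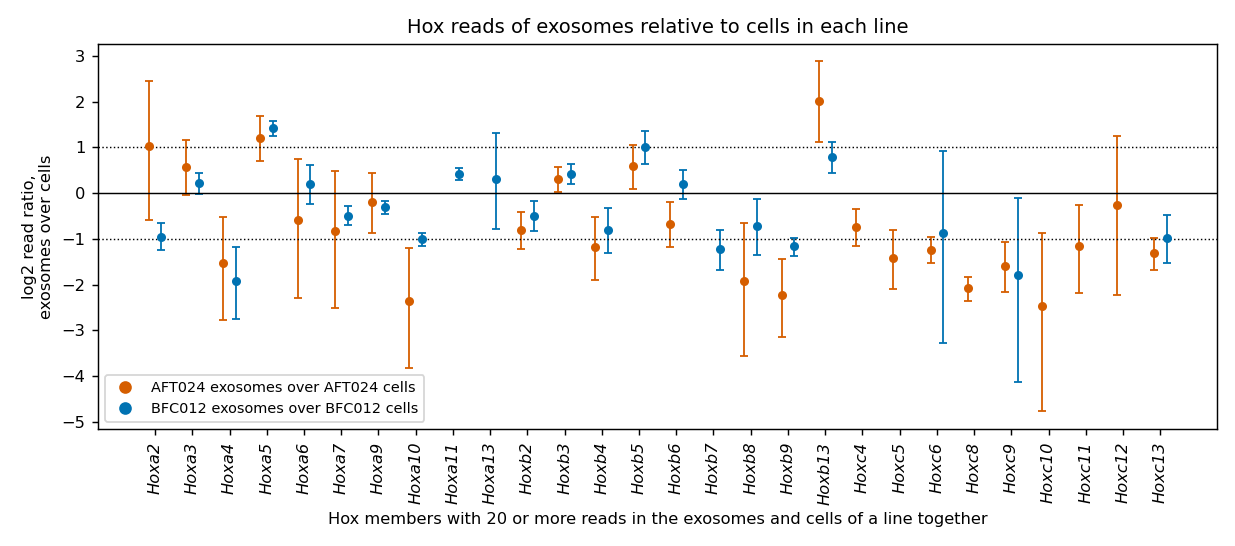
Log2 read ratio of exosomes over cells in AFT024 and in BFC012 for the Hox genes shown, each with 20 or more reads in that line. Bars are exact 95% counting intervals and dotted lines mark 2-fold. Most HoxC genes of AFT024 lie near or below the lower line, and Hoxa5 lies above the upper line in both lines.

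The genes around the Hox proteins differed less between the cells. Of 9 cofactors of the TALE family (Meis, Pbx and Pknox, which bind DNA with Hox proteins), 2 were higher and 1 lower in AFT024 cells, with a median log2 ratio of 0.19 against -0.00 over all genes, of which 21.3% were called. Pknox2 stood at 7.16 FPKM in AFT024 cells and 1.69 FPKM in BFC012 cells, and its reads had a ratio of 4.80 (4.15 to 5.58). Meis1 stood at 8.45 FPKM in AFT024 cells and 3.59 FPKM in BFC012 cells, a ratio of 2.41 (2.15 to 2.71), and Pbx4 at 2.90 FPKM in AFT024 cells and 6.94 FPKM in BFC012 cells, a ratio of 0.461 (0.363 to 0.583). Of 31 Polycomb and trithorax genes, which keep Hox clusters shut or open, 2 were higher and 0 lower, and the list median was 0.11. Over all genes 11.9% were higher and 9.46% lower, so fewer of these genes were called than of genes at large. The 2 were Phf19, a Polycomb accessory gene, at 2.48 (2.26 to 2.72), and Cbx7, a Polycomb reader gene named after its values were seen, with 114 reads in AFT024 cells against 2 in BFC012 cells, at 53.1 (14.4 to 443). Every other gene of the list lay under 2-fold.

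The non-coding RNAs counted between the cells were mostly those of HoxA, and the ones that differed were lower in AFT024 cells. Of 23 listed, 19 were in the tables and 9 were counted between the cells, of which 0 were higher and 6 lower in AFT024, 5 of these in HoxA and 1 in HoxB. Over all 14203 genes 11.9% were higher and 9.46% lower. Hoxaas2, opposite Hoxa3, had 0 reads in AFT024 exosomes, 395 in BFC012 exosomes, 19 in AFT024 cells and 1000 reads in BFC012 cells. Hoxa11os had 0 reads in AFT024 exosomes, 167 in BFC012 exosomes, 0 in AFT024 cells, against 207 in BFC012 cells, and shares bases with Hoxa11. The gene of Mir196a-1, between Hoxb13 and Hoxb9, had 0 reads in both AFT024 groups, 67 in BFC012 exosomes and 73 in BFC012 cells in polyA RNA. Set to the floor of 3 reads, it was 26.1-fold lower in AFT024 cells, and the interval of the ratio reached up to 0.0482. Gm15050, in HoxA, had 16 reads in AFT024 exosomes, 43 in BFC012 exosomes, 59 in AFT024 cells and 188 reads in BFC012 cells, a ratio of 0.292 (0.214 to 0.393) between the cells.

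Of 19 genes beside the clusters, 11 were counted between the cells, 4 higher and 2 lower in AFT024, where 11.9% of all 14203 genes were higher and 9.46% lower. The HoxC neighbours Calcoco1 (2.45, 2.24 to 2.68), Smug1 (2.31, 2.13 to 2.51) and Cbx5 (2.15, 2.11 to 2.19) were higher, as was the HoxB neighbour Skap1, named after its values were seen, on 24 reads in AFT024 cells against 7 in BFC012 cells. The HoxA neighbours Snx10 (0.282, 0.261 to 0.305) and Skap2 (0.498, 0.462 to 0.536) were lower.

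The clusters also encode miRNAs, which were read in the small RNA libraries of the same lines. The 5 mature arms below are those with the most reads from each locus (RefSeq, GRCm38.p6; all 5 found in the table). Sequences run 5′ to 3′, and capitals mark the seed, bases 2 to 8.
miR-196b-5p: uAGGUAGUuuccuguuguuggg
miR-196a-5p: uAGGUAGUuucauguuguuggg
miR-615-3p: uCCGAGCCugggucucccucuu
miR-10a-5p: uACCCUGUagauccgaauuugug
miR-10b-5p: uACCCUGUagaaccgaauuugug
miR-196b-5p and miR-196a-5p share the seed AGGUAGU and differ by C12A, counted from the 5′ end with the base of miR-196b-5p given before that of miR-196a-5p. miR-10a-5p and miR-10b-5p share the seed ACCCUGU and differ by A12U, with the base of miR-10b-5p given before that of miR-10a-5p. A read with an error at that base can be counted for the other arm, and its share was not tested, as the mapping rule is not given in the sources used here. miR-196 targets Hox transcripts of the central and posterior groups, and miR-10 lies beside the genes of paralog group 4. The printed arm of Mir196b (chr6:52230129-52230150, minus strand) lies within the annotated span of Hoxa9, that of Mir615 (chr15:103014969-103014990, plus strand) within the span of Hoxc5, that of Mir10a (chr11:96317186-96317208, plus strand) between Hoxb5 and Hoxb4, and that of Mir10b (chr2:74726074-74726096, plus strand) within the spans of Hoxd3 and Hoxd4.

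Arms from HoxA and HoxC followed their clusters. miR-196b-5p had 37 reads in AFT024 exosomes, 1036 in BFC012 exosomes, 1084 in AFT024 cells and 49507 reads in BFC012 cells, a ratio of 0.0221 (0.0208 to 0.0235) between the cells and 0.0359 (0.0251 to 0.0499) between the exosomes. miR-615-3p had 1922 reads in AFT024 exosomes, 290 in BFC012 exosomes, 14668 in AFT024 cells and 448 reads in BFC012 cells, a ratio of 33.0 (30.1 to 36.4) between the cells and 6.67 (5.89 to 7.57) between the exosomes. In cells the genes around them stood at 0.0775 (Hoxa9) and 47.5 (Hoxc5), on the same side of 1. Over the 770 miRNA arms counted between the cells, 22.9% were called higher and 21.4% lower in AFT024. Over the 470 counted between the exosomes, 19.6% were called higher and 17.9% lower.

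The 2 loci of miR-196a give the same 5p arm but different 3p arms. The 3p arm of the HoxB locus (Mir196a-1) had 0 reads in AFT024 exosomes, 77 in BFC012 exosomes, 0 in AFT024 cells and 571 reads in BFC012 cells. Set to the floor of 3 reads, this arm was 189-fold lower in AFT024 cells, and the interval of the ratio reached up to 0.00654. The 3p arm of the HoxC locus (Mir196a-2) had 5 reads in AFT024 exosomes, 0 in BFC012 exosomes, 136 in AFT024 cells and 41 reads in BFC012 cells, a ratio of 3.35 (2.35 to 4.87) between the cells. The loci thus differed in opposite directions, like Hoxb13 and Hoxb9 on one side and the HoxC genes on the other, while the reads of the shared 5p arm, listed under both loci, were lower in AFT024 cells for each listing, at 0.452 (0.417 to 0.489) and 0.481 (0.460 to 0.504).

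miR-10a-5p, from HoxB, was the most read of these arms, and miR-10b-5p, from HoxD, was the one that differed most between exosomes and cells. miR-10a-5p had 31101 reads in AFT024 exosomes, 103999 in BFC012 exosomes, 424829 in AFT024 cells and 835067 in BFC012 cells. Its ratio between the cells was 0.513 (0.512 to 0.515), just under the 2-fold rule, and that between the exosomes was 0.301 (0.297 to 0.305). miR-10b-5p had 7363 reads in AFT024 exosomes, 6176 in BFC012 exosomes, 646 in AFT024 cells and 331 in BFC012 cells. It stood at 85.6 (79.0 to 92.9) in AFT024 exosomes against AFT024 cells and at 141 (126 to 158) in BFC012 exosomes against BFC012 cells, while the HoxD genes around its locus had at most 3 reads summed in any group. Over all counted arms 24.5% were called higher and 35.6% were called lower in AFT024 exosomes against AFT024 cells. In BFC012 exosomes against BFC012 cells 26.9% were called higher and 37.4% lower.

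**Figure D5:**
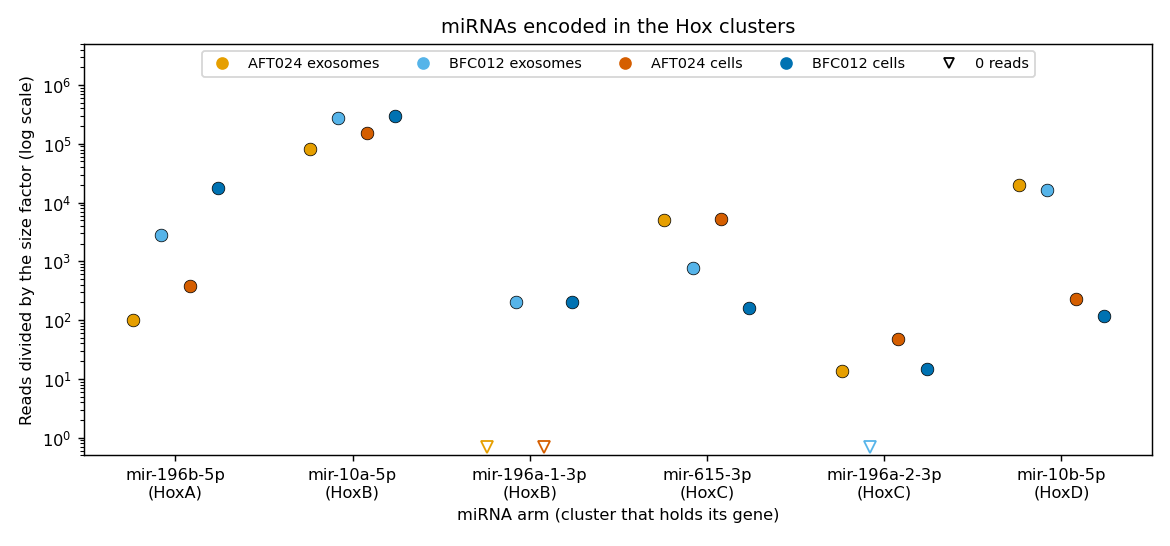
miRNA arms encoded in the Hox clusters in the 4 small RNA groups, as reads divided by the size factor of the group (log scale); open triangles are groups at 0 reads. mir-196b-5p is highest in BFC012 cells, mir-615-3p is higher in both AFT024 groups than in either BFC012 group, and mir-10b-5p is higher in both exosome groups than in either kind of cell.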

How the data were processed

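PolyA RNA and small RNA were sequenced from 2 stromal lines and their exosomes, with 8 polyA and 8 small RNA samples in 8 groups of 2. The submitters' processing notes name TopHat, Bowtie, Cufflinks and the mm10 build, with no versions. The authors deposited reads divided by a size factor per group (a normalised signal) and FPKM, each as 1 merged value per group, per the file headers. Some deposited files write decimal commas, which were read as points. Whole reads were recovered from the signal steps: 100% of values came out whole within 0.01 of a read. Reads were rescaled by median-of-ratios factors over 14905 genes. Depth ran from 9038471 to 39385534 reads, and intervals cover counting error only. Every Hox gene with 20 or more reads over the 4 groups is given in full, except 1 that is not reported here and is kept in counts and sums. Other genes are named where they are at 1 FPKM or more and 2-fold apart between the cells, at most 5 per list. The members and lists were chosen with earlier results of these data known. Exonic overlaps came from GENCODE M21, sequences from RefSeq (GRCm38.p6). Python 3.11.15, NumPy 2.4.6, SciPy 1.17.1, pandas 2.3.3 and matplotlib 3.10.9 were used. Alternatives were other size factors, read minimums, folds and FPKM scales.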

Additional observations from a re-analysis of the deposited data

How the results depend on the processing

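Of 54 alternative settings, 46 left the counts within 1.5 times and 8 moved them. The balance of higher against lower turned in 2 results, given below. Between the cells, 19 to 22 Hox genes were called under every setting. In AFT024 exosomes against cells, 15 calls (3 higher, 12 lower) became 7 at 3-fold, 5 with the whole interval past 2-fold and 9 on FPKM with a pseudocount of 1 relative to the median gene, where the balance turned to 6 higher and 3 lower. This split was 1 higher and 17 lower by library totals, 1 and 12 with at least 100 reads, 0 and 16 on FPKM as deposited, and 6 and 10 with a pseudocount of 0.1. In BFC012, 7 calls (2 higher, 5 lower) became 11 by library totals (0 higher), 2 at 3-fold, 2 with the whole interval past 2-fold and 4 on FPKM relative to the median gene (1 higher, 3 lower). It was 0 higher and 8 lower on FPKM as deposited, 4 and 4 with a pseudocount of 0.1, and 1 and 7 with the authors' factors. Between the exosomes it was 3 higher and 11 lower on FPKM as deposited and 3 and 10 relative to the median gene. In AFT024 exosomes 8 members reached 1 FPKM and 16 reached 20 reads. The 3 members whose exosome ratio differed between the lines (1 with the AFT024 ratio higher, 2 lower) became 2 under library totals, where the balance also turned (2 higher, 0 lower), and 2 with at least 100 reads (0 higher, 2 lower). The median gene moved to -0.67 in AFT024 and -0.61 in BFC012 on the log2 scale by library totals. The cause of these shifts was not tested. Reads under 20 limit AFT024 exosomes most. The settings without members of shared exonic bases and with RPKM from recovered reads were chosen after seeing the data. No paired analysis was possible because the tables hold 1 merged value per group, and leaving out a replicate was not run for the same reason.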
